A study of Mus musculus with 8 samples.

Results

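Among the cells of the mouse tongue epithelium, 131 carried transcripts of the myeloid gene Lyz2 and of at least 2 of Saa3, Saa1 and Csf3. These cells are called here Saa3/Csf3 monocytes. They were 0.520% of the 25199 cells that passed the limits on genes, unique molecular identifiers (UMIs) and mitochondrial UMIs, out of 42550 barcodes in 8 libraries. A cell was a member when it held at least 5 UMIs of Lyz2 and at least 1 UMI of 2 or more of Saa3, Saa1 and Csf3. Members also held under 5 UMIs of the complement genes C1qa, C1qb and C1qc together, at most 1 UMI of the granule genes Ngp and Camp, no UMI of the T-cell gene Cd3e and under 0.5% of their UMIs in 5 keratins. The members were thus chosen by their own UMIs of these genes, so the levels of the selecting genes are a description, and no test sets the members against other cells.

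All mice carried Krt14-CreERT and LSL-rtTA, which after tamoxifen and doxycycline permit transgene expression in basal epithelial cells. Control mice (N) had no further programme, E mice added tetON_E6-E7, a pair of papillomavirus oncogenes. Y mice added tetON_YAP1S127A, a YAP1 variant that escapes inhibition by the Hippo pathway, and EY mice carried both transgenes. The study's methods add a tetON reporter to the genotype of every group, the controls included. The labels give neither age nor sex. There were 2 libraries per group (N1, N2 and so on), from viable sorted cells taken 15 days after induction, and the title of N2 names more than 1 animal, so it may pool mice. The transgenes are driven in keratinocytes and not in the myeloid cells described here.

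Serum amyloid A proteins are small acute phase proteins induced by interleukin 1, interleukin 6 and bacterial products. Saa1 is made mainly by the liver, while Saa3 is made locally by macrophages, adipocytes and epithelia. Csf3 encodes granulocyte colony stimulating factor, the cytokine that drives production and release of neutrophils from the bone marrow. Lyz2 encodes lysozyme, found in monocytes, macrophages and neutrophils. Classical monocytes enter inflamed tissue from the blood through the chemokine receptor Ccr2 and can there take up inflammatory or suppressive programmes.

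Saa3 and Saa1 lie near each other on chromosome 7 (GRCm38), on the minus strand at 46711998 to 46715700 and at 46740497 to 46742980, and Csf3 lies on the plus strand of chromosome 11 at 98701263 to 98703629. The 250 bases upstream of the RefSeq start of Saa3 (chr7:46715677-46715926, GRCm38.p6, minus strand) and of Saa1 (chr7:46742981-46743230, minus strand) are shown because both transcripts selected the members yet were held by different numbers of them. Capitals mark matches on either strand to a loose NF-kB site (GGG, any 5 bases, CC) or to a loose C/EBP site (TTNNGNAA).

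Saa3: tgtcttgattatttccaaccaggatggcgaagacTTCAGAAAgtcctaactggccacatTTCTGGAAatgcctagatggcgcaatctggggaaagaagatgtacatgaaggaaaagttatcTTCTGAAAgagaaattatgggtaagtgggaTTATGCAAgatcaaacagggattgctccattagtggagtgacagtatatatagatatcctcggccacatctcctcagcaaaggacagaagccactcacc

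Saa1: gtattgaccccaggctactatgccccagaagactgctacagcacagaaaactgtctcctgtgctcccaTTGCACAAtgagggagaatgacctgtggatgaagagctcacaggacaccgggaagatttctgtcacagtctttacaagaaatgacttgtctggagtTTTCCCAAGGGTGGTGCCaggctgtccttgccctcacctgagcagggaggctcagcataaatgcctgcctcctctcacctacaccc

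The Saa3 window held 4 matches to the C/EBP pattern, starting 216, 191, 129 and 99 bases before the start, and none to the NF-kB pattern. The Saa1 window held 2 C/EBP matches, at 182 and 86 bases, the second adjoining a single NF-kB match at 78 bases. Of 32851 RefSeq promoters of this length, 36.8% held the C/EBP pattern and 45.8% the NF-kB pattern, so a match is common and describes these letters alone.

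The summed members held from 22007 UMIs in N2 to 862397 in EY1. Filtered cells per library ran from 1520 (E2) to 5407 (Y1), and cells low in keratin from 716 (N1) to 4004 (Y1). Members had a median of 11493 UMIs (3147 to 27049). Depth differed between libraries, with medians of 12220 UMIs in Y1, 14169 in EY1 and 5148 in EY2. Of all barcodes 471 also occurred in another library, among them 3 members, all in EY2. Scrublet, a doublet caller, marked no member, but it marked only 0.0736% of barcodes in EY1, which holds 61 of the members, and 0.0140% in E1, so it gives no assurance on doublets there. Only Y1 (29 cells), EY1 (61 cells) and EY2 (35 cells) reached the 20 members set as the minimum for levels, given below as CPM in its usual sense, a gene's summed UMIs scaled to a fixed total per class and library.

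The defining markers of the mononuclear myeloid lineage were present. Cd14, the lipopolysaccharide coreceptor, was at 6178 CPM in Y1, 5019 in EY1 and 4450 in EY2 and had a UMI in all 131 members. Csf1r, the receptor of the macrophage growth factor, stood at 204, 209 and 265 CPM in the same order. Ly6c2, a surface antigen of classical monocytes, was detected in 102 of 131 members, at 501, 715 and 461 CPM. T cells, some of which also make it, held 954, 385 and 419 CPM, so Ly6c2 alone does not set the members apart. Vcan and F13a1, also found in classical monocytes, stood at 490, 424 and 313 CPM and at 532, 635 and 700 CPM. Ccr2 was low, at 46.8, 48.7 and 31.8 CPM, against 300.3, 183 and 313 CPM in the Ly6c2/Ccr2 monocytes that were gated on it.

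Many defining markers of other lineages were at 0, while epithelial, erythroid and neutrophil transcripts were present and are given below. All 6 markers of B and plasma cells and all 5 of mast cells and basophils had no UMI in any member. Cd4, Ncr1 and Klrb1c of T and NK cells, Clec9a, Cd207, Cd209a and Zbtb46 of dendritic cells, Col1a1 and Pdgfra of fibroblasts and Cd163, Folr2 and Lyve1 of resident macrophages were also at 0. The summed level of the 14 tissue macrophage markers, 3 of which the rule limits, was 1424, 2051 and 1453 CPM, against 13683, 9913 and 17567 CPM in C1q macrophages.

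Neutrophil transcripts were not absent. The calprotectin gene S100a8 was at 22868 CPM in Y1, 34939 in EY1 and 33873 in EY2, against 219, 1402 and 486 CPM in T cells of the same libraries. Of the 131 members, 90 held at least 2 of Csf3r, Hdc, Cxcr2, Retnlg, Mmp8 and Ly6g. Of these, Retnlg stood at 8.26, 78.8 and 143 CPM and Ly6g at 0, 4.64 and 0 CPM. Mmp8 was higher, at 331, 552 and 727 CPM, and Hdc stood at 154, 122 and 127. Csf3r was at 57.8, 34.8 and 31.8 CPM and Cxcr2 at 57.8, 97.4 and 37.1. The 16 listed neutrophil genes summed to 30536, 51622 and 55520 CPM, against 182488, 91070 and 55330 in the S100a8/Csf3r cells. Those cells of Y1, gated as neutrophils, held 14885 CPM of Retnlg and 287 CPM of Ly6g. That gate did not collect neutrophils in EY2, where its 29 cells held 6.23 CPM of Retnlg, no Ly6g, 42508 CPM of Saa3 and 505 CPM of Csf3, so it is used only as a comparison by its rule. The part of neutrophil RNA in the members' levels was not tested.

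Saa3 was in every member by measurement, although the rule asked for any 2 of the 3 genes. Its UMIs per cell had a median of 111 in Y1 (15 to 424), 128 in EY1 (1 to 774) and 165 in EY2 (6 to 550). The 4 cells of Y2 held 5 to 33 and the 2 of N2 held 5 and 36. Saa3 RNA was also found in T cells, where 24.9% of EY2 cells and 5.97% of Y1 cells had a UMI (median depths 3323 and 5601 UMIs). In EY1 the share was 29.4% (median depth 6659 UMIs). Saa1 and Csf3 had no UMI in the 181 T cells of EY2, which allows a share of up to 2.02% by the exact upper limit, and a UMI in at most 1.57% of T cells in Y1 and EY1.

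Csf3 was held by 26 of 29 members in Y1, 57 of 61 in EY1 and 23 of 35 in EY2, with 188, 428 and 97 UMIs. In CPM these were 518, 496 and 515, nearly equal across the 3 libraries. Saa1 was unequal, with 7 of 29, 6 of 61 and 20 of 35 members holding it and levels of 465, 74.2 and 488 CPM. A transcript of the near-identical neighbour Saa2 could be counted under Saa1, so the Saa1 values are uncertain to that extent. By combination, 97 members held Saa3 and Csf3 without Saa1, 20 held Saa3 and Saa1 without Csf3, and 14 held all 3. With each cell thinned to 2000 UMIs, Csf3 was detected in 55.2% of members in Y1, 45.9% in EY1 and 51.4% in EY2, against 89.7%, 93.4% and 65.7% unthinned.

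**Figure D1:**
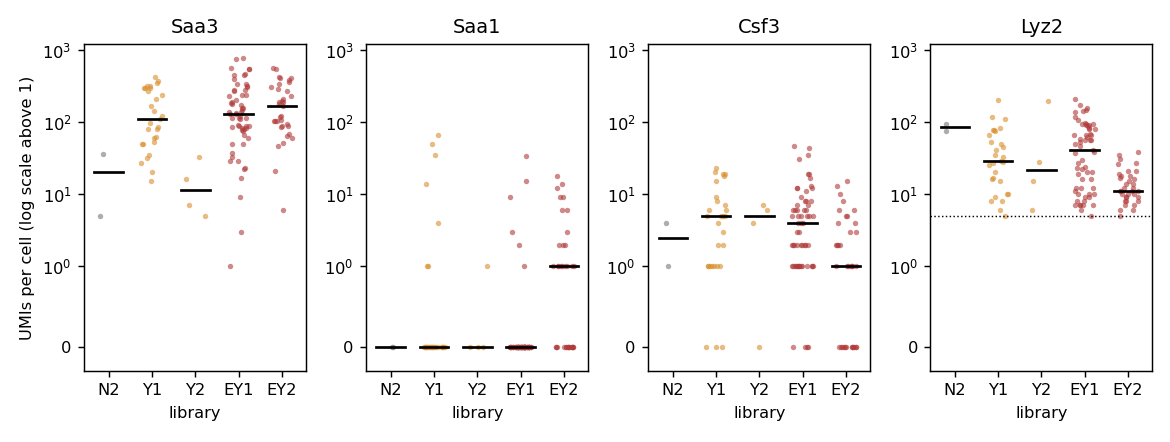
UMIs per member cell of the selecting genes Saa3, Saa1, Csf3 and Lyz2 (y axis, logarithmic above 1) by library (x axis), with 1 point per cell, a bar at the median and a dotted line at the Lyz2 limit of 5. Saa3 was above 0 in all 131 members, Saa1 was at 0 in most members outside EY2, and Lyz2 lay closest to its limit in EY2, with a median of 11.

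The cells just outside the rule show how much rests on each limit. With exactly 1 of Saa3, Saa1 and Csf3, 756 further cells met the rest of the rule, and in 744 of them the gene was Saa3. With 3 or 4 UMIs of Lyz2 in place of 5 or 6 there were 23 cells outside against 8 inside, and with 0 to 2 UMIs there were 114. The limit on C1q genes removed 21 cells, that on Ngp and Camp 25, that on Cd3e 1 and that on keratins none.

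The 137 cells that failed on Lyz2 alone outnumbered the members and lay mostly in EY2, which held 88 of them, while EY1 held 19, Y1 18, Y2 6, N2 4, and N1 and E2 1 each. In 50 of the 88 EY2 cells Lyz2 had no UMI. Their other levels resembled those of the EY2 members: Cd14 2714 against 4450 CPM, Csf1r 220 against 265, S100a8 22930 against 33873, Nos2 1397 against 1342 and Thbs1 3449 against 3023. Saa3 (55678 against 36722 CPM), Csf3 (1085 against 515) and Saa1 (1282 against 488) stood above the members, and Chil3, a chitinase-like protein of monocytes (3155 against 10879), and Il1b (6292 against 12895) below. Median depth was alike, 4711.5 against 5148 UMIs. In N2 and Y2 the Lyz2-low cells were of another kind in part, since Col1a1, the fibroblast collagen, was in 3 of 4 and in 3 of 6 of them, at 7018 and 5980 CPM.

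Members were found mainly where the epithelium carried the YAP transgene, with 129 of 131 in Y and EY libraries. Of the low-keratin cells they were 0 of 716 and 2 of 1418 (0.141%) in the N libraries, and 0 of 783 and 0 of 954 in the E libraries. In the Y group they were 29 of 4004 (0.724%, 95% Clopper-Pearson interval 0.486 to 1.04%) and 4 of 1248 (0.321%, 0.0874 to 0.819%). In the EY group they were 61 of 1629 (3.74%, 2.88 to 4.78%) and 35 of 1011 (3.46%, 2.42 to 4.78%). The counts of 0 allow shares of up to 0.419% in N1, 0.383% in E1 and 0.314% in E2 (3 cells of the total), and these intervals and limits cover counting error only. The Y2 interval overlaps those of all libraries without the YAP transgene. The Y1 interval overlaps the Clopper-Pearson intervals of N1 (0 to 0.514%) and N2 (0.0171 to 0.509%). The intervals of EY1 and EY2 lie above all others.

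The 4 libraries with the YAP transgene averaged 2.06% ± 1.79 (SD, n = 4) and the 4 without it 0.0353% ± 0.0705 (SD, n = 4), and every library with it was above every library without it. The difference of 2.03 percentage points had p = 0.0286 in a two-sided exact permutation test over 70 labellings, the smallest this design can give, and 0.0571 after Benjamini-Hochberg adjustment over both transgenes. It therefore did not pass an adjusted threshold of 0.05. For E6-E7 the means were 1.80% ± 2.08 with and 0.296% ± 0.314 without (SD, n = 4 each; exact permutation p = 0.429, adjusted 0.429). EY was not tested against Y for the share. The cells were proposed for study with their distribution over these libraries known, so the test is not independent evidence. A share can rise because members were more or because other low-keratin cells were fewer, and these cannot be told apart.

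As a share of all Lyz2 cells the Y libraries held 2.58 and 1.31% members, the EY libraries 6.99 and 8.86% and N2 0.743%. Without the Lyz2 limit the shares of low-keratin cells became 1.17 and 0.801% in the Y libraries and 4.91 and 12.2% in the EY libraries, against at most 0.423% (N2) in the libraries without YAP. Of all filtered cells, EY1 held 3.36% members against 1.12% for EY2. After thinning every low-keratin cell to 2000 UMIs, EY1 held 1.04% against 1.59% for EY2. Y1 then held 0.200% (8 members) against 0.241% for Y2 (3 members), and the libraries without YAP held none. The order of EY1 and EY2 thus depended on the Lyz2 limit, on the denominator and on thinning. That of Y1 and Y2 was reversed by thinning.

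**Figure D2:**
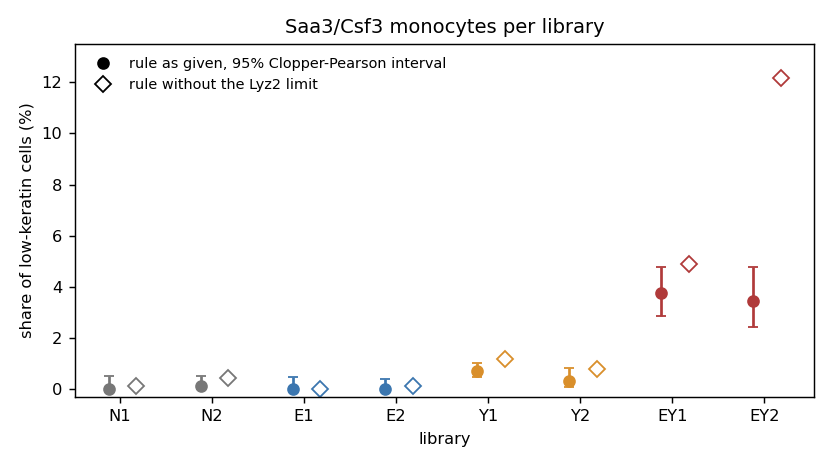
Share of low-keratin filtered cells that were Saa3/Csf3 monocytes (y axis, percent) in each library (x axis), with 95% Clopper-Pearson intervals on the filled points and open diamonds for the rule without its Lyz2 limit. The EY libraries sit at 3.74 and 3.46%, the Y libraries at 0.724 and 0.321% and the rest at or below 0.141%, and the EY2 diamond stands at 12.2%.

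Levels in the members are set beside those of Ly6c2/Ccr2 monocytes and C1q macrophages of the same library, as a description, because the gates used these cells' own genes. Of 2494 genes at 50 CPM or more in at least 1 of the 3 classes in each library, 258 (10.3%) stood above both other classes in Y1, EY1 and EY2 and 730 (29.3%) below both. The counts per list below cover all measured genes of a list, those under 50 CPM and any selecting genes included. Those shares are thus only a loose guide to them. The S100a8/Csf3r cells are left out of these counts. In EY2 they stood above the members for Slpi (15476 CPM), Ccl3 (2504), Ccl4 (4791) and Nos2 (1663), and in Y1 for Cxcl2 (32134). In Y1 and EY1 they stood below the members for Slpi, Ccl3, Ccl4 and Nos2, and in EY1 and EY2 for Cxcl2. High levels of these genes were thus not confined to the members.

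Acute phase and antimicrobial genes stood above both classes in 7 of 15 cases. Among them were Saa3 and Saa1, which selected the cells, so their place follows from the rule. Summed, this list was higher in the S100a8/Csf3r cells than in the members in Y1 (30858 against 29798 CPM) and EY2 (74506 against 64909). In EY1 it was lower (26933 against 30499). Slpi, a secreted inhibitor of neutrophil elastase, was at 7682 CPM in Y1, 6513 in EY1 and 14735 in EY2, against 623, 1351 and 1864 CPM in Ly6c2/Ccr2 monocytes and 63.2 to 1149 CPM in C1q macrophages. The haptoglobin gene Hp, which binds free haemoglobin, was at 1482, 1367 and 3172 CPM, against 409, 1316 and 1565. Lcn2, which withholds iron from bacteria, was at 1564, 2388 and 4822 CPM and did not stand above the monocytes of EY1 (2628 CPM). Acod1, the enzyme of itaconate synthesis, was at 656, 1237 and 562 CPM, and Wfdc21, a small antimicrobial protein, at 1738, 2081 and 1761. Wfdc17 stood at 2762, 2514 and 1894 CPM, under the S100a8/Csf3r cells of Y1 (13674). The Saa3 level was highest in EY2, with 36722 CPM against 12763 in Y1 and 13450 in EY1.

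Il1b was the most abundant of the listed cytokines, at 11835, 13241 and 12895 CPM in Y1, EY1 and EY2, against 6216, 7487 and 7943 in Ly6c2/Ccr2 monocytes. Il1a, the second agonist of the same receptor, was at 1374, 1706 and 1278 CPM against 158, 660 and 495, and its range across the members of the 3 libraries was narrow. The receptor antagonist Il1rn varied more, at 3426, 1585 and 658 CPM, and so did Tnf, at 735, 785 and 164. Inhba, which encodes the activin A subunit, was at 1421, 1863 and 886 CPM. Il10, an anti-inflammatory cytokine, was detected in 28 members at 157, 62.6 and 106 CPM against 8.76 to 14.6 in Ly6c2/Ccr2 monocytes. Osm, a cytokine of the interleukin 6 family, was at 259, 405 and 233 CPM and Tgfb1 at 383, 404 and 329, neither above both classes in all 3 libraries. Il6 was near 0, with 18 UMIs in Y1, 6 in EY1 and none in EY2, and Il12b had none. Of the list of 18 measured cytokines, 7 stood above both classes in all 3 libraries.

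Of 10 colony stimulating factors and growth factors, 3 stood above both classes in all 3 libraries, namely Csf3, Areg and Ereg. Csf3 selected the cells, so its place follows from the rule. Csf2 had no UMI in the members, and neither had Pdgfb, Tgfa and Igf1. Areg, a ligand of the epidermal growth factor receptor, was at 231, 219 and 101 CPM, against 48.6, 43.0 and 0 in Ly6c2/Ccr2 monocytes. C1q macrophages held 111, 171 and 79.9 CPM of Areg and T cells 88.7, 191 and 70.9 CPM. Only 28 members had a UMI of Areg. Ereg rested on 7, 15 and 8 UMIs in Y1, EY1 and EY2. Vegfa, the endothelial growth factor, was at 281, 249 and 149 CPM, below both classes in EY2 and between them in Y1 and EY1.

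Of 6 neutrophil attractants, 2 stood above both classes in all 3 libraries, namely Cxcl2 and Cxcl3. Cxcl2, a ligand of the neutrophil receptor Cxcr2, was at 23670, 21571 and 29094 CPM, against 7612, 10238 and 14829 in Ly6c2/Ccr2 monocytes, and had UMIs in all 131 members. Cxcl3 was at 3985, 1205 and 2578 CPM against 151, 380 and 379. Cxcl1 was at 790, 317 and 997 CPM, but in only 49 members, and did not stand above the C1q macrophages of EY1 (346 CPM). Pf4, a platelet chemokine, was at 190, 0 and 271 CPM and came from 7 cells. The Cxcr2 ligands Cxcl5 (0, 1 and 7 UMIs) and Ppbp (0, 0 and 5 UMIs) were nearly absent.

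Of the ligands that draw monocytes and lymphocytes, Ccl3 and Ccl4 were highest. Ccl3 was at 2922, 1804 and 2143 CPM against 160, 356 and 197 in Ly6c2/Ccr2 monocytes. Ccl4 was at 7087, 3479 and 4238 CPM against 425, 646 and 473, with T cells, which also make it, at 751, 594 and 1815 CPM. Ccl9 was at 969, 414 and 1018 CPM and Ccl6 at 449, 368 and 202. Ccl2, the ligand of Ccr2, was low, at 82.6, 173 and 74.3 CPM. Ccl5 (669, 169 and 265 CPM), Cxcl16 (204, 220 and 175) and Ccl24 (105, 213 and 37.1) were below the C1q macrophages in each library.

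Genes with suppressive functions in myeloid cells stood above both classes in 8 of 17 cases. Nos2, the inducible nitric oxide synthase, was at 1399 CPM in Y1, 1286 in EY1 and 1342 in EY2, against 134, 432 and 415 in Ly6c2/Ccr2 monocytes and 70.6 to 626 in C1q macrophages. The S100a8/Csf3r cells held 298, 746 and 1663 CPM of it. Arg2, the mitochondrial arginase, was at 435, 344 and 477 CPM. Arg1, the cytosolic one, was at 611, 39.4 and 430 CPM and detected in 29 members only. Thbs1, which activates latent TGF-beta, was at 6321, 2841 and 3023 CPM against 1023, 2048 and 1259. Ptgs2 and Ptges, successive enzymes of prostaglandin E2 synthesis, were at 1931, 1180 and 621 CPM and at 317, 53.3 and 260 CPM. Cd274, which encodes PD-L1, was at 471, 464 and 345 CPM. Spp1 was at 1217, 824 and 461 CPM, while Vsir (124, 109 and 117) and Entpd1 (127, 150 and 149) did not stand above both classes in EY1. Ido1 had no UMI.

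Receptors of microbial products stood above both classes in 7 of 19 cases, among them Clec4e at 1308, 1866 and 1236 CPM and Fpr1 at 198, 227 and 164. In the list of NF-kB targets this held for 8 of 17 genes, with Sod2 at 1661, 1562 and 1660 CPM against 346, 818 and 641 in Ly6c2/Ccr2 monocytes. It held for 9 of 25 hypoxia and glycolysis genes, with the lipid droplet gene Hilpda at 741, 987 and 1135 CPM and the oxidoreductase Ero1l at 413, 478 and 504. In the matrix and protease list it held for 5 of 22, and Timp1, the metalloproteinase inhibitor, was at 576, 85.8 and 255 CPM. It held for 1 of 21 cytokine and chemokine receptors, of which 8 stood below both classes.

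MHC class II genes, which present antigen to CD4 T cells, were below both classes in all 3 libraries for 7 of 7 genes. H2-Aa was at 1465 CPM in Y1, 232 in EY1 and 228 in EY2, against 10478, 5690 and 6250 in C1q macrophages. In EY1 the Ly6c2/Ccr2 monocytes were low too, at 453 CPM. Interferon-stimulated genes were below both classes for 7 of 21 and above both for none. The 29.3% below both covers only genes at 50 CPM or more. The immediate early and dissociation genes were below both for 6 of 13 and above for none. Cell cycle genes were below both for 2 of 15 and above for none. Summed, these 15 held only 383, 390 and 573 CPM in the members, so their count is not set against the 29.3%.

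**Figure D3:**
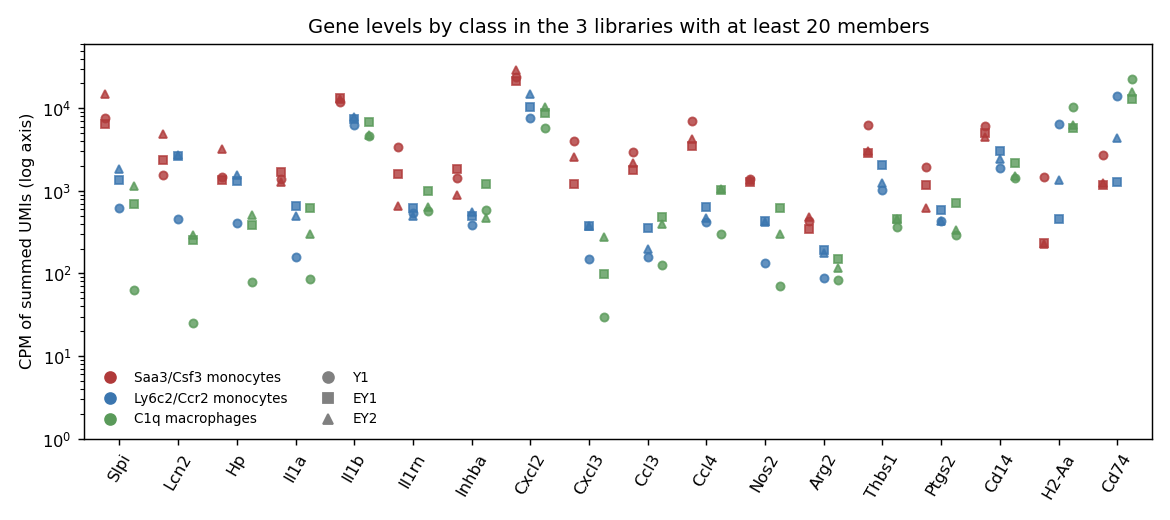
CPM of summed UMIs (y axis, logarithmic) for 18 genes (x axis) in Saa3/Csf3 monocytes, Ly6c2/Ccr2 monocytes and C1q macrophages (colours) of Y1, EY1 and EY2 (symbols). The members lie above both other classes in each library for 15 of the 18 genes, all but Lcn2, H2-Aa and Cd74, and below both for H2-Aa and Cd74.

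The 12 genes that stood highest over all 3 of Ly6c2/Ccr2 monocytes, C1q macrophages and S100a8/Csf3r cells in each library, rule genes left out, had small margins. They were Mapk6, Jdp2, Nfkb1, Il1b, Areg, Hif1a, Tnip1, Plec, Tubb6, Gde1, Il1a and Rilpl2, with a lowest ratio from 1.62 for Mapk6, an atypical MAP kinase, to 1.19 for Rilpl2. Nfkb1, the precursor of the NF-kB p50 subunit, was at 394, 327 and 170 CPM, and Hif1a, the hypoxia-inducible factor, at 644, 495 and 610. Over Ly6c2/Ccr2 monocytes and C1q macrophages alone, a set chosen after the values were seen, the leading genes were Slpi, Ccl3, Ccl4, Cxcl3, Irak3, Il1a, Fpr1, Marcksl1, Nos2, Hdc, Tnip1 and Cxcl2, with lowest ratios from 4.82 (Slpi) to 1.96 (Cxcl2).

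Although few, the members held much of some transcripts. They contributed 0.615% of all UMIs of filtered cells in Y1, 4.16% in EY1 and 0.432% in EY2. Of the Csf3 UMIs they held 188 of 497 in Y1 (37.8%), 428 of 947 in EY1 (45.2%), 97 of 1085 in EY2 (8.94%) and 17 of 90 in Y2 (18.9%). Of the Saa1 UMIs they held 57.1% in Y1, 50.4% in EY1 and 13.2% in EY2. Both genes selected the cells, so a high share follows from the rule.

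The rest of the Csf3 lay in different cells in each library. In EY2, 555 UMIs lay in low-keratin cells under the Lyz2 limit and 386 (35.6%) in 84 keratin-high cells. In EY1, 289 lay in cells above the limit on Ngp and Camp and 147 in C1q macrophages. In N2, 97 of 111 UMIs lay in 3 cells under the Lyz2 limit. Libraries N1, E1 and E2 held 13, 23 and 2 UMIs of Csf3 in all.

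Genes the rule did not use were also unevenly held. The members held 17.3%, 14.4% and 12.5% of Nos2 UMIs in Y1, EY1 and EY2, and 12.5%, 14.9% and 13.4% of Il1a. For Slpi the shares were 17.3%, 19.7% and 6.396%, and for Thbs1 12.2%, 11.9% and 9.89%. Over the members' share of all UMIs, Nos2 was held 28.2, 3.47 and 28.9 times as much, and Il1a 20.4, 3.59 and 31.0 times. Il1b, which the other myeloid classes also held, was at 7.10, 2.64 and 28.5 times. All filtered cells include epithelial and T cells, and the rule asked for Lyz2. A raised share of a myeloid gene thus follows in part from the rule. Lcn2, mainly in other cells, was at 2.53%, 2.29% and 2.44%, and in EY1 that was 0.550 times the members' share of all UMIs.

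**Figure D4:**
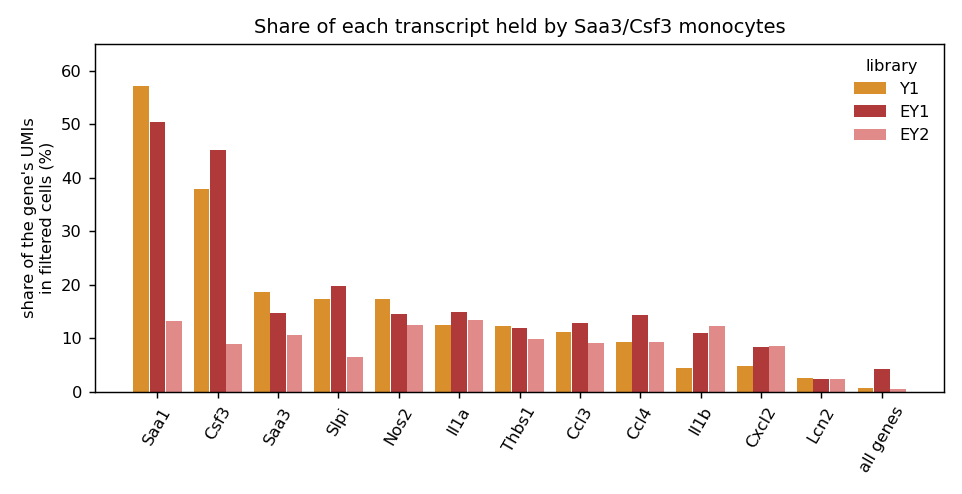
Percent of a gene's UMIs in all filtered cells that lay in Saa3/Csf3 monocytes (y axis, from 0) for 12 genes and for all genes together (x axis), with 1 bar each for Y1, EY1 and EY2. Saa1 and Csf3, which chose the cells, reach 57.1 and 45.2%, and Nos2 stands between 12.5 and 17.3%, against 0.432 to 4.16% of all UMIs.

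Members differed among themselves by library. The 4 members of Y2 and the 2 of N2 did not have the profile of the rest: S100a8 was at 235 CPM in Y2 and 182 CPM in N2, Nos2 had no UMI in either, and Lcn2 had 1 UMI in Y2 and none in N2. Csf1r was at 739 CPM in Y2 and 454 CPM in N2, from 22 and 10 UMIs. They shared Il1b (11057 and 4090 CPM) and Cxcl2 (26820 and 6316 CPM) with the other members.

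Within libraries, members with Saa1 were compared with those that held Csf3 without Saa1, by level only. In Y1 the 7 with Saa1 held 12260 CPM of Slpi against 6001 in the 22 others, 2001 against 1178 CPM of Nos2, and 20.5 against 828 CPM of Arg1. In EY2 the 20 with Saa1 held 17050 against 11376 CPM of Slpi, 1299 against 1404 CPM of Nos2 and 224 against 728 CPM of Arg1. The order for Slpi and Arg1 was thus alike in Y1 and EY2 and that for Nos2 was not. In EY1, 6 members held Saa1, with 8590 against 6281 CPM of Slpi and 0 against 43.8 CPM of Arg1.

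RNA of other cells differed by library. Krt14, a keratin of basal epithelium, was at 160 CPM in the members of Y1, 144 in EY1 and 711 in EY2, against 186, 115 and 590 CPM in Ly6c2/Ccr2 monocytes of the same libraries. The erythroid list summed to 2906 CPM in the members of EY1, where 1 cell held 2294 haemoglobin UMIs. The part of this RNA in other levels was not tested.

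The question of how the members of EY differ from those of Y could be fitted only with libraries of at least 3 members in place of 20, a change made after the counts were seen, and Y2 entered with 4 cells. Of 2892 genes tested with edgeR, 1 was called at an adjusted p under 0.05 (0.0346%), and 139 had an unadjusted p under 0.05. It was Cxcl9, an interferon-gamma-induced chemokine for T cells, on the minus strand of chromosome 5 (92321347 to 92328079). It had 317 UMIs in EY1 and 74 in EY2 (368 and 393 CPM) and 2 UMIs in Y1 and none in Y2. These UMIs came from 14 of 61, 7 of 35 and 2 of 29 members. The ratio of summed counts was 73.1, with a 95% counting interval of 20.1 to 606 (edgeR adjusted p = 0.00427). That interval treats each UMI as independent and leaves out the spread between cells and between libraries. Ly6c2/Ccr2 monocytes held it in both groups, at 403 CPM in Y1, 747 in EY1 and 466 in EY2, and the difference between the classes was not tested. With the 90 members that carried neutrophil transcripts left out, no gene was called in edgeR, and the log2 difference of Cxcl9 was 4.17 (adjusted p = 0.424) on 1236 genes, with 73 genes at an unadjusted p under 0.05. With a single library removed, calls numbered 32 (Y1 removed), 23 (Y2), 16 (EY1) and 6 (EY2), with Cxcl9 called in each.

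The listed genes with the next smallest p-values were not called. H2-Aa, of MHC class II, was at 232 and 228 CPM in EY1 and EY2 and 1465 and 1143 CPM in Y1 and Y2, with no overlap (log2 difference -2.34 ± 0.36, SE; edgeR adjusted p = 0.0652). H2-Ab1 followed (-1.90; edgeR adjusted p = 0.124), then Cxcl10, a chemokine with the same receptor as Cxcl9, at 568 and 149 CPM in EY1 and EY2 and 24.8 and 0 CPM in Y1 and Y2 (4.16; edgeR adjusted p = 0.150). Of the 6 class II genes tested, 6 were lower in EY, with a median log2 difference of -1.71 against 0.02 over all genes. All 8 interferon-stimulated genes tested were higher in EY (median 0.69), and none was called.

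No library without the YAP transgene had enough members for a gene test, so the genes that mark the members were followed in the wider population they were taken from. These C1q-low Lyz2 cells met the rule without Saa3, Saa1 and Csf3 and had a UMI of the leukocyte gene Ptprc. They numbered 36 and 132 in the N libraries, 77 and 68 in E, 397 and 71 in Y, and 422 and 141 in EY, members included. This comparison was also chosen after the data were seen. In an additive edgeR model of both transgenes, 121 of 6481 genes (1.87%) were called for YAP, 81 higher (1.25%) and 40 lower (0.617%).

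Several genes that marked the members were called higher with YAP. Il1a was at 380 and 279 CPM in the Y libraries and at 900.3 and 626 CPM in the EY libraries. The N libraries held 53.1 and 58.5 CPM and the E libraries 63.5 and 89.6, with no overlap (log2 difference 3.10 ± 0.27, SE; adjusted p = 0.00259). Nos2 was at 270, 30.0, 707 and 720 CPM with YAP and 46.5, 13.8, 30.6 and 49.9 without, so that Y2 lay among the libraries without YAP (3.65 ± 0.68; adjusted p = 0.0339). Inhba (3.23), Cxcl3 (2.55), Hilpda (2.23) and Ero1l (2.12) did not overlap and had adjusted p from 0.0116 to 0.0214. Among rises whose libraries did not overlap and whose mean reached 50 CPM were also Mmp8, the neutrophil collagenase (3.78), Chil3 (3.63), the decoy receptor Il1r2 (3.06) and St7 (2.41). Lcn2 (4.96) and Wfdc21 (3.65) were called with larger or similar differences, but in both E2 lay above Y2.

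The named falls were Ckb (-3.001), Rnase6 (-1.95), Slco3a1 (-1.52), the prothrombinase gene Fgl2 (-1.26), Pak1 (-1.21), the integrin gene Itga4 (-1.14), Uap1l1 (-1.01) and the immunoproteasome gene Psmb9 (-0.92). Markers of dendritic and Langerhans cells moved in the same direction: all 6 tested were lower (median -2.47), and Cd207, the langerin gene (-3.44), and Flt3 (-2.76) were called, as was Cx3cr1 of the tissue macrophage list (-2.47). Cd207 was at 365 and 277 CPM in the N libraries, 21.9 and 2.56 in E, 10.3 and 27.01 in Y and 2.36 and 5.20 in EY, so that the E and Y libraries overlapped. The part of such cells in the falls was not tested. By list, the called genes were 3 of 9 acute phase genes (Lcn2, Wfdc17, Wfdc21; median log2 difference 2.002), 3 of 14 cytokines (Il1a, Inhba, Il12a; 0.75), 2 of 14 suppressive mediators (Nos2, Arg2; 1.14) and 4 of 24 hypoxia genes (Hilpda, Ero1l, Egln3, Slc2a1; 0.58), all higher, against a median of -0.03 over all genes. All 7 MHC class II genes were lower and none was called (-0.90), and 17 of 18 interferon-stimulated genes were lower with none called (-0.82). Of 12 neutrophil genes, 3 were called higher (Mmp8, Lcn2, Il1r2), and the part of neutrophil RNA was not tested.

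The selecting genes are given as values only. In these wider cells Csf3 was at 46.9 and 28.5 CPM in the Y libraries and 70.9 and 87.0 CPM in the EY libraries, against 0 and 4.41 CPM in the N and 19.7 and 0 CPM in the E libraries. Saa3 was at 2458 and 1107 CPM (Y), 8609 and 22350 (EY), 833 and 106 (N) and 72.2 and 1654 (E), so that E2 lay above Y2. With the members left out, 69 genes were called and Il1a (2.81), Nos2 (3.21), Inhba, Cxcl3, Hilpda and Ero1l remained called. Of the 12 leading genes of the members only Il1a was called in this fit. The number of calls rested on the large libraries: without Y1 there were 3, Il1a and Wfdc17 among them, and without EY1 there were 13. Without the others the count was 63 (N1), 66 (N2), 34 (E1), 67 (E2), 220 (Y2) and 62 (EY2). The 38 listed and named calls kept their direction in each, but many lost their call. Of them 2 stayed called without Y1, 6 without EY1, 12 without E1 and 35 without Y2. Without N1, N2, E2 or EY2 it was 17 to 19. Psmb9 lost its call in all 8 of these fits, Cd207 and Flt3 in 7 and Nos2 in 6.

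**Figure D5:**
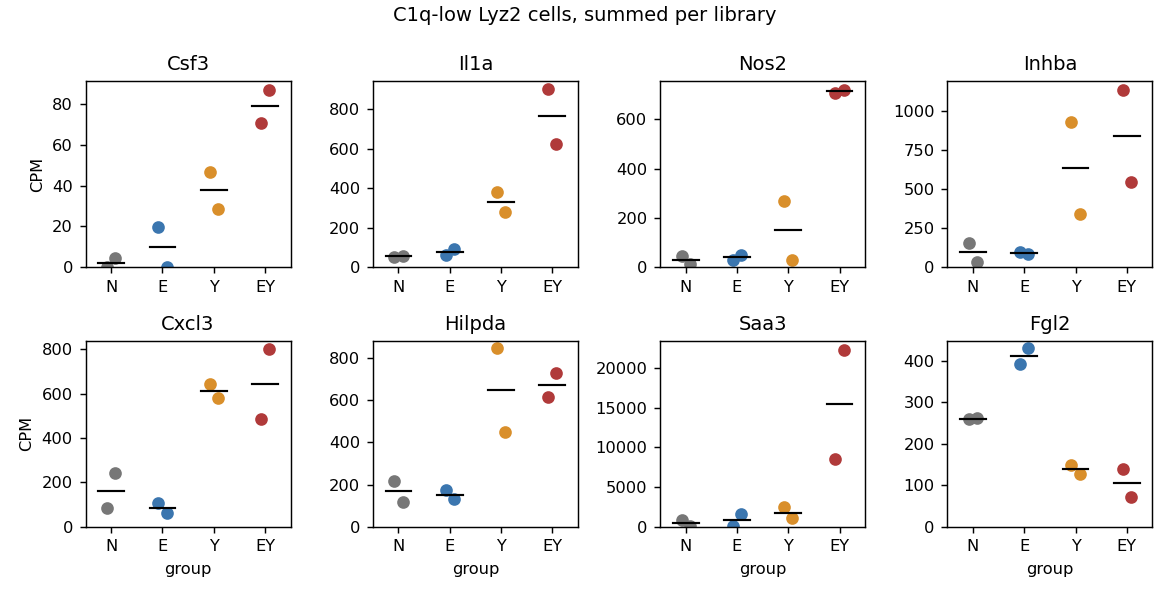
CPM of 8 genes (y axis, from 0) in C1q-low Lyz2 cells summed per library, by group (x axis), with 1 point per library and a bar at the mean of each pair. Il1a, Inhba, Cxcl3 and Hilpda are higher in every Y and EY library than in every N and E library, Fgl2 is lower, and Nos2 in Y2 (30.0 CPM) and Saa3 in Y2 overlap the libraries without YAP.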

How the data were processed

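Viable cells sorted from tongue epithelium were profiled with 10x Genomics 3' libraries. Per the labels the authors made the UMI count tables with Cell Ranger against mm10. The deposited counts are raw UMIs per gene and barcode, and the libraries are separate samples by their labels, so p-values measure the spread between libraries.

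Cells were kept within 1000 to 5500 genes, up to 30000 UMIs and up to 7% of UMIs from mitochondrial genes (8 libraries, 46483469 to 102427359 UMIs each). Doublets were called with Scrublet (scanpy 1.11.5) and kept. The members, gene lists and comparisons were chosen with earlier results of these data known. Shares were compared by exact permutation over libraries (scipy 1.17.1) with Benjamini-Hochberg adjustment over 2 tests. UMIs were summed per library and tested with edgeR 4.0.16 (filterByExpr, TMM, quasi-likelihood; R 4.3.3), adjusted over all genes tested, with DESeq2 1.42.0 as an alternative. The planned gene tests needed 20 members per library on both sides and were not run; the EY against Y fit at 3 cells and the fit in C1q-low Lyz2 cells were chosen after seeing the data. Named genes had to be called, reach 50 CPM on average in 1 arm, show no overlap between libraries, not be over 5 times higher in epithelial cells and not be used by the rule, up to 10 per direction; in addition list members and selecting genes are given by value. Not every gene that met this rule is reported here. On simulated counts, the wider fit called 98.9% of genes changed by 2 on the log2 scale and the fit in members 56.8%. The simulation gave every gene the same spread between libraries, so these shares may not hold for the real counts.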

Additional observations from a re-analysis of the deposited data

Results flagged for a closer look

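In Y1, 1 cell met the marker limits of the Saa3/Csf3 monocytes but failed the limits on genes, UMIs or mitochondrial UMIs, and in EY2 there was also 1. No such cell was found in the control libraries. These cells enter no comparison.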

How the results depend on the processing

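The difference in share with YAP was positive under every alternative run and ranged from 0.253 points (all 3 of Saa3, Saa1 and Csf3) to 4.75 points (of Lyz2 cells), and from 1.47 to 2.61 points with 1 library left out. The smallest adjusted p that the full design can give beside E6-E7 was 0.0571, so staying above 0.05 says nothing about stability. For E6-E7 the latter range was 0.858 to 2.11 points. In the wider cells 121 genes were called for YAP, against 125 with DESeq2 size factors, 305 with the DESeq2 test, 779 with no filter on low counts, 143 without the Ptprc limit, 45 with Ly6c2 required, 213 with a group-mean model and 69 with the members left out. Leaving out 1 library gave 3 to 220 calls. Of the 121 calls 66.9% were higher, against 88.9% with Ly6c2 required and 55.8% with no filter, 77.8% without N1 and 80.3% without N2. For EY against Y in the members, 1 call became 3 with DESeq2 size factors, 3 with the DESeq2 test, 30 with no filter, 0 with neutrophil-transcript members left out and 6 to 32 with 1 library left out. The causes were not tested. No result reversed. No paired analysis was possible because the labels give no replicate numbers, and the numbers used here only name libraries in accession order. The 35 members of EY2 had the lowest depth, and groups with 0 to 4 members per library limit what could be detected.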
